A study of Bombus terrestris with 70 samples.

Results

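Def is the defensin gene of the buff-tailed bumblebee Bombus terrestris, listed by RefSeq with the synonym defensin-1. Here its messenger RNA was followed in queens, in 3 tissues. It is 1 gene of 10435 in the brain table, 10432 in the fat body table and 10418 in the ovary table. It was chosen by its symbol, and the same row was read in each table. Egg-removal queens (R) had their eggs taken away, a treatment meant to raise the costs of reproduction. Control queens (C) had their eggs taken away and put back, so both treatments shared the disturbance. Queens were frozen when 10% (TP1) or 60% (TP2) of their cohort had died. The labels give no genotype and no age in days. A change with age here means TP2 against TP1 in different queens, so ageing and the survival of some queens to TP2 cannot be told apart. At a given time the treatments were matched by the share of deaths, not by a stated age. A library holds the RNA of 1 tissue from a single queen, and a column was present for 68 of the 70 labelled samples. The brain had 6 egg-removal and 6 control queens at TP1 and 5 of each at TP2. The fat body had 6 egg-removal queens at each time, against 6 control queens at TP1 and 4 at TP2. The ovary had 6 queens in every group.

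Insect defensins are small secreted peptides, rich in cysteines, that kill bacteria, chiefly Gram-positive ones. In Drosophila the fat body is the main source of antimicrobial peptides in the haemolymph, and their genes are switched on through the Toll and Imd pathways, which end in transcription factors of the NF-kappaB family. Epithelia and haemocytes can make such peptides too.

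The values are normalized read counts, scaled by the authors within each tissue's table. A level set across tissues is therefore given as CPM, the normalized count scaled to a common library total, and was not tested. Estimated depth ran between 24.1 and 56.0 M reads in the brain, 12.1 and 60.2 M in the fat body and 19.6 and 68.0 M in the ovary. The lists of brain, fat body, germ line and haemocyte markers matched 0 identifiers of the tables, so the tissue labels could not be checked against them. The lists of other immune genes (recognition, Toll, Imd, Jak/STAT and melanization) also matched 0, and Def was the sole match among the antimicrobial peptides. On the linear scale, 1 library stood far above the rest for Def in 5 of the 12 groups. These were brain egg removal TP1 number 1 and fat body egg removal TP2 number 2. In the ovary they were egg removal TP2 number 6, control TP1 number 6 and control TP2 number 1. In whole tissue, fewer cells of a type and less RNA per cell cannot be told apart.

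Def was a major transcript of the fat body, a variable one of the brain and a minor one of most ovaries. Its median share was 2946 CPM in fat bodies, 88.6 CPM in brains and 4.65 CPM in ovaries. In the fat body it ranked between place 2 and place 326 among the genes of a library, and at its highest it made up 3.04% of the total. In the brain it ranked between 34 and 8275, and in the ovary between 123 and 9471. Set beside the library of the same number, treatment and time, the fat body share was above the brain share in 20 of 20 cases, by 5.27-fold to 328-fold with a median of 32.1-fold. It was also above the ovary share in 22 of 22 cases, by 16.9-fold to 5202-fold with a median of 583-fold. The ovary share exceeded the brain share in 1 of 22 cases, number 6 of control TP2, where the ratio was 1.02.

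**Figure D1:**
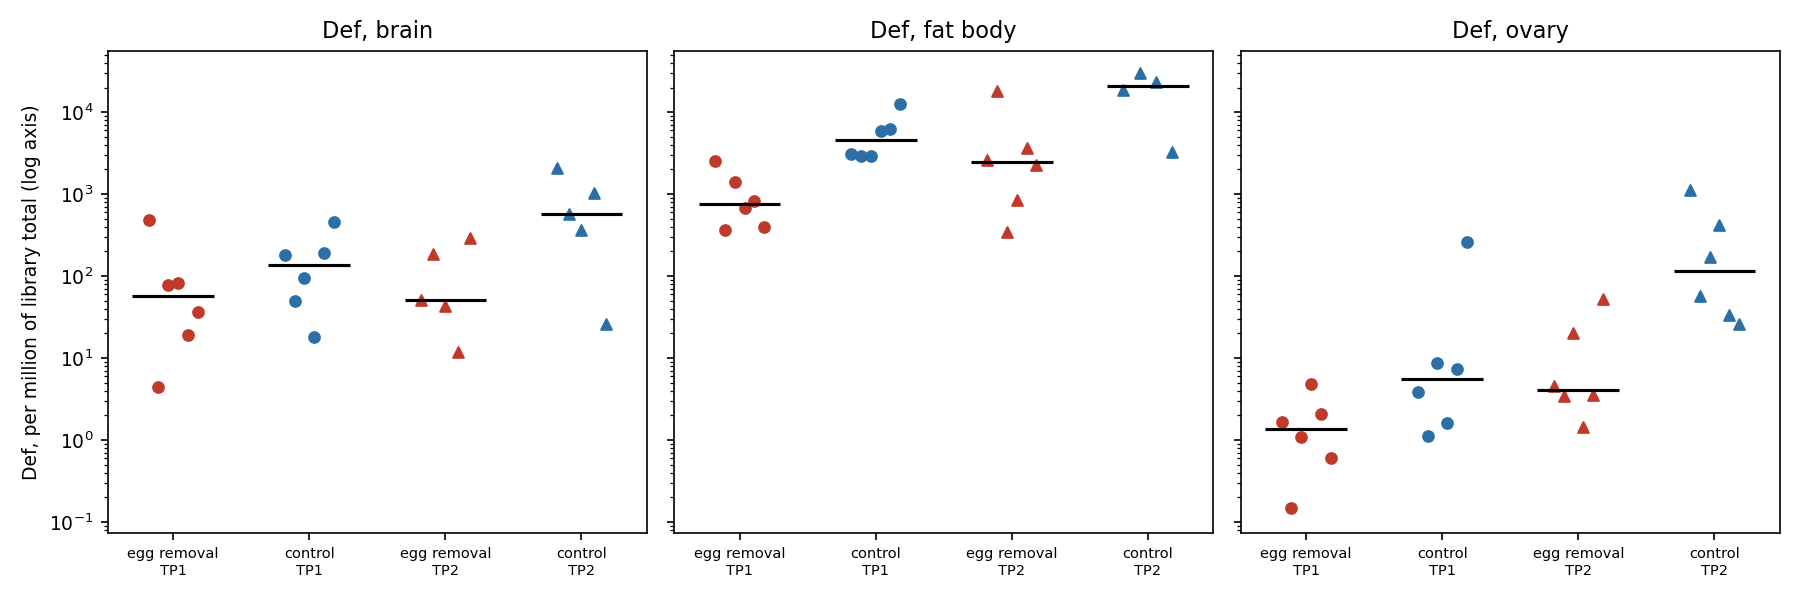
Def in every library, in CPM of the library total on a log axis, by tissue and group (red egg removal, blue control; circles TP1, triangles TP2; the bar is the group median). The fat body libraries lie between 343 and 30363 CPM, and the ovary libraries of control TP2 stand above those of the other ovary groups, with overlap.

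Ordered by median share, the fat body groups came first. Control TP2 had 21140 CPM, control TP1 4532, egg removal TP2 2446 and egg removal TP1 756. Within a tissue such shares depend on the scaling. In the fat body the log2 difference between egg removal and control at TP1 was -2.56 with equal totals and -1.81 under the authors' scaling. Next came brain control TP2 with 571, brain control TP1 with 137 and ovary control TP2 with 115 CPM. Below them were brain egg removal TP1 with 57.6 and brain egg removal TP2 with 51.6 CPM. The remaining ovary groups were lowest, at 5.61 in control TP1, 4.06 in egg removal TP2 and 1.37 in egg removal TP1. The ranges of each pair of neighbours in this order overlapped, in part through single libraries such as ovary control TP1 number 6 (261 CPM). The order was not tested, and it leaves aside the comparison of same-numbered libraries above.

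That spread was wide. Within groups, the SD of Def's log2 value was 2.20 in brains, where the median over all kept genes was 0.21. It was 1.42 in fat bodies, where that median was 0.42, and 2.19 in ovaries, where it was 0.44. More variable than Def were 79 of 10388 kept genes in brains, 345 of 10383 in fat bodies and 123 of 10401 in ovaries. Within a group the highest library exceeded the lowest by 5.54-fold in fat body control TP1 at the least and by 224-fold in ovary control TP1 at the most. Any difference between groups is read against this spread.

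In the ovary, egg-removal queens had less Def than control queens at TP2, and control queens had more at TP2 than at TP1. At TP2 the egg-removal ovaries had between 74.2 and 2453 normalized counts (median 209), against between 1179 and 68787 (median 5454) in control ovaries. The groups overlapped because 1 egg-removal library (number 6, 2453) lay above 2 control libraries, while the other 5 lay below every control. The log2 difference was -4.31 (SE 1.19, 95% interval -6.78 to -1.84), or 19.9-fold lower, with a limma adjusted p of 0.00419. This was a tissue and time in which 58.9% of all genes tested were called (limma, adjusted p under 0.05), so a call alone does not set Def apart. The two-sided exact permutation test of Def alone gave p = 0.00866, or 0.0909 adjusted over the 12 simple comparisons.

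The change with age in control ovaries was of like size. Control ovaries held between 1179 and 68787 normalized counts (median 5454) at TP2, against between 58.2 and 13015 (median 292) at TP1. At TP1, 5 of 6 control libraries lay below every TP2 library, and number 6 (13015) lay within their range. The log2 difference of TP2 over TP1 was 4.20 (SE 1.19, 95% interval 1.73 to 6.67), or 18.4-fold higher, with a limma adjusted p of 0.00466, in a comparison that called 61.8% of genes. The exact permutation p was 0.026, adjusted 0.0909.

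Both ovary calls rested in part on 2 libraries. Control TP2 numbers 1 and 4, with 68787 and 25106 counts of Def, were also the shallowest of the ovary, at an estimated 19.6 and 23.7 M reads, where the others of that group had between 47.3 and 58.4 M. In alternatives chosen after the values were seen, both libraries were left out or depth entered the fit. Without both, the log2 difference between egg removal and control at TP2 was -2.98 (limma adjusted p = 0.0514) and that with age in control was 2.87 (adjusted p = 0.0571). With estimated depth as a covariate the 2 differences were -2.85 (limma adjusted p = 0.0544) and 2.96 (adjusted p = 0.0345). With any 1 library left out, the adjusted p lay between 0.0012 and 0.0145 for the first and between 0.000391 and 0.0161 for the second. The part of depth in these differences was not tested further.

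The other ovary comparisons were not called. At TP1 the egg-removal ovaries had between 7.46 and 237 counts (median 71.3), against the control range of 58.2 to 13015. Here 3 of 6 egg-removal libraries lay below every control and 3 of 6 controls lay above every egg-removal library. The log2 difference was -2.63 (SE 1.19, 95% interval -5.10 to -0.16; limma adjusted p = 0.441), and the exact permutation p was 0.0563. With age in egg-removal queens the log2 difference of TP2 over TP1 was 2.52 (SE 1.19, 95% interval 0.05 to 4.99; limma adjusted p = 1; exact permutation p = 0.0303). In both of these comparisons limma called 0% of genes, although 1111 and 286 genes had an unadjusted p under 0.05. By size, 25 genes at TP1 and 16 genes with age in egg removal had a larger log2 difference than Def in either direction. A gene as variable as Def can rank high by size with no difference between groups. By unadjusted limma p, 892 and 261 genes came before it. The interaction, which sets the age change of egg-removal queens against that of controls, was -1.68 (SE 1.69; limma adjusted p = 0.438; 34.9% of genes called).

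**Figure D2:**
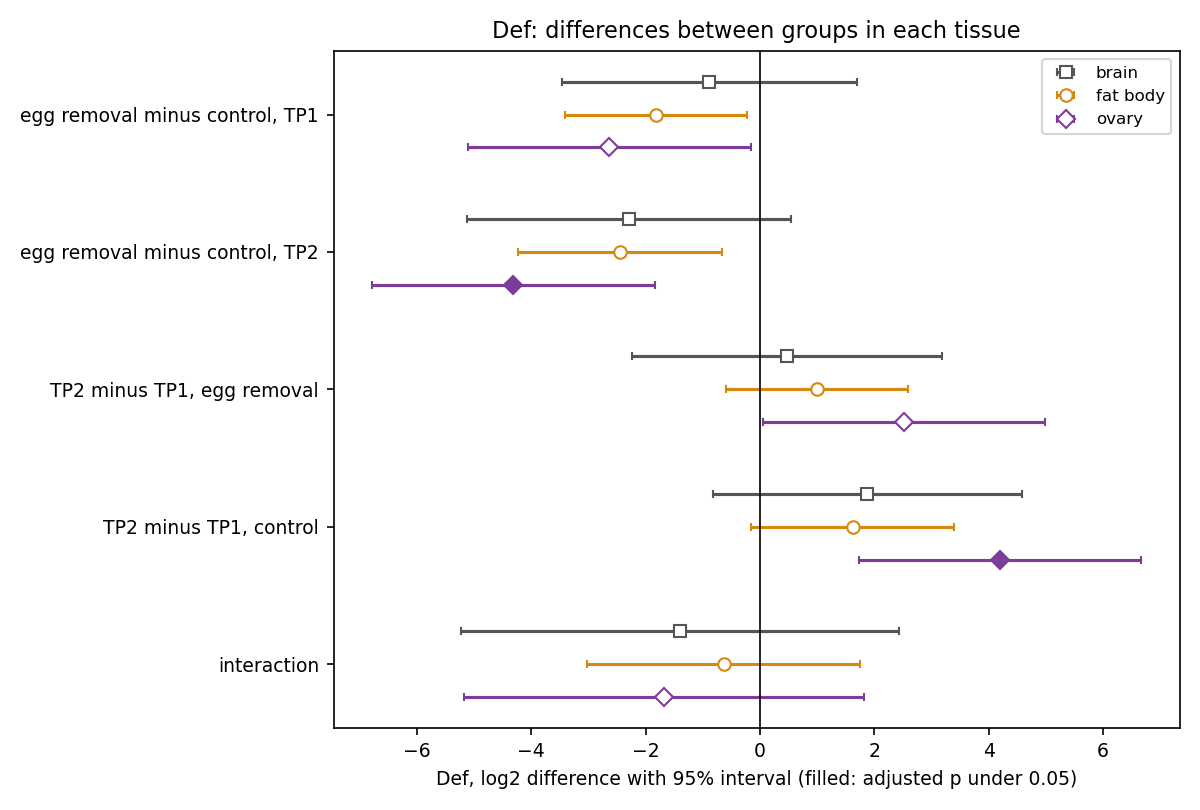
Log2 differences of Def between groups with 95% intervals from limma, for 5 comparisons in the brain (square), fat body (circle) and ovary (diamond); filled symbols have an adjusted p under 0.05. Of the 15, 2 are filled, both in the ovary: egg removal minus control at TP2 (-4.31) and TP2 minus TP1 in control (4.20).

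In the fat body, Def was lower in egg-removal queens at both times by estimates whose intervals left out 0, but neither passed the threshold over all genes. At TP1 the egg-removal libraries held between 17205 and 100466 counts (median 37244), against between 69632 and 385487 (median 137993) in control. Of the 6 egg-removal libraries, 4 lay below every control. The log2 difference was -1.81 (SE 0.77, 95% interval -3.41 to -0.22), with a limma adjusted p of 0.0734 where 32.4% of genes were called, and an exact permutation p of 0.0195 (adjusted 0.0909). This result depended on the fit. The adjusted p was 0.0154 in a limma fit of these 2 groups alone, 0.0233 with a weight per library 0.0335 without number 2 of egg removal TP2, which enters through the shared spread, and 0.261 with estimated depth as a covariate, where the log2 difference was -1.55 (SE 0.91). Egg-removal libraries had a median depth of 50.7 M reads and control libraries 21.2 M. With libraries scaled to the same total the log2 difference was -2.56 (limma adjusted p = 0.00713), while the median over all genes moved to -0.81, against -0.09 under the authors' scaling.

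At TP2, fat body egg-removal libraries 1 to 6 held 81972, 756463, 15900, 28980, 113032 and 69813 counts. Control libraries 1, 2, 3 and 5 held 453522, 1357739, 569877 and 92831. In egg removal, 4 of 6 lay below every control, while number 2 exceeded 3 of the 4 controls, and control number 5 lay within the egg-removal range. The log2 difference was -2.45 (SE 0.86, 95% interval -4.22 to -0.67), with a limma adjusted p of 0.0929 where 4.6% of genes were called, and an exact permutation p of 0.081. Without egg-removal number 2 the adjusted p was 0.0367, without control number 5 it was 0.0231, and over all alternatives it lay between 0.0231 and 0.264.

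With age, the fat body differences of TP2 over TP1 were 0.99 in egg removal (SE 0.77; limma adjusted p = 0.446; 5.99% of genes called) and 1.62 in control (SE 0.86; limma adjusted p = 0.316; 1.24% of genes called). In control, 3 of 4 libraries at TP2 lay above every TP1 library. The interaction was -0.63 (SE 1.15; limma adjusted p = 0.836; 1.05% of genes called).

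In the brain no difference was called, and the intervals were wide. At TP2 the egg-removal brains 1 to 5 held 2342, 6676, 2371, 578 and 12981 counts, against 74961, 20470, 13841, 38923 and 935 in control brains 1, 2, 3, 4 and 6. Of the 5 controls, 4 lay above every egg-removal brain, and number 6 lay near the bottom. The log2 difference was -2.29 (SE 1.35, 95% interval -5.12 to 0.54; limma adjusted p = 0.309; 8.57% of genes called), with an exact permutation p of 0.119. At TP1 the egg-removal brains held between 153 and 32162 counts (median 2782), against between 631 and 16558 (median 5515) in control brains, a log2 difference of -0.89 (SE 1.23; limma adjusted p = 0.752; 2.37% of genes called). That estimate was unsteady, between -1.66 and -0.12 with 1 library left out and -1.65 with a weight per library, and it was called in none of these fits. With age the differences were 0.48 in egg removal (SE 1.29; limma adjusted p = 0.994; 0.0481% of genes called) and 1.88 in control (SE 1.29; limma adjusted p = 0.490; 2.57% of genes called). The interaction was -1.40 (SE 1.83; limma adjusted p = 0.999; 0% of genes called, 446 with an unadjusted p under 0.05).

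Whether Def's change differed between tissues was tested in a joint fit of 12 differences over 10175 genes, and none was called. The fit took all libraries as independent, so its SEs leave out any link of Def between same-numbered libraries. An alternative with such a link used 1 correlation for all genes (0.038), not Def's own. The least limma adjusted p was 0.208, for the change with age in control in the fat body minus that in the ovary, at -2.58 (SE 1.67, 95% interval -5.92 to 0.76), where 43.1% of genes were called. For egg removal against control at TP2, the fat body minus the brain was -0.16 (95% interval -3.64 to 3.33; limma adjusted p = 0.988; 0.256% of genes called). For the same effect the fat body minus the ovary was 1.87 (95% interval -1.47 to 5.21; limma adjusted p = 0.384; 39.8% of genes called), and the ovary minus the brain -2.03 (SE 1.65; limma adjusted p = 0.328; 41.1% of genes called). The remaining 8 lay between -1.75 and 2.32, with limma adjusted p between 0.236 and 1. The share of genes called for them was 15%, 0.963% and 0.108% for the fat body minus the brain (egg removal at TP1, age in egg removal, age in control). It was 22.3% and 2.75% for the fat body minus the ovary (egg removal at TP1, age in egg removal) and 46.2% for the ovary minus the brain with age in control. For the ovary minus the brain it was 0% for egg removal at TP1 and for age in egg removal, with 892 and 173 genes at an unadjusted p under 0.05. The wide intervals do not show that the tissues changed alike.

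Libraries with the same number, treatment and time were next compared between tissues. The labels do not say whether a number marks 1 queen. Over all kept genes, the library of a tissue correlated best with its own number in 12 of 20 cases for fat body and brain, 13 of 22 for fat body and ovary and 11 of 22 for ovary and brain, where a random match would give 4. The median correlation of same-numbered libraries was between 0.073 and 0.081, and that of other numbers between -0.028 and -0.011.

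Pooled over the groups, Def varied together between brain and ovary and, less firmly, between brain and fat body. Each value was taken as its log2 deviation from its group's mean. Group by group the link was uneven. For ovary and brain r ran between 0.212 (egg removal TP2, 5 pairs) and 0.864 (control TP2, 5 pairs). For fat body and brain it ran between -0.479 (control TP2, 3 pairs) and 0.865 (egg removal TP1, 6 pairs). Ovary and brain had Pearson r = 0.644 over 22 pairs (within-group permutation p = 0.00178, adjusted 0.00534 over the 3 pairs of tissues) and Spearman rho = 0.624 (permutation p = 0.00525). Without the 2 pairs farthest from the median by their ovary value, r was 0.616. Fat body and brain had r = 0.523 over 20 pairs (permutation p = 0.0191, adjusted 0.0286) and rho = 0.552 (permutation p = 0.0227). Without the 2 pairs farthest from the median by their fat body value, r was 0.626. That choice kept numbers 1 and 2 of egg removal TP1, which had the farthest brain deviations (3.86 and -3.85). Without number 6 of control TP1, or number 1 or 2 of egg removal TP1, the adjusted permutation p was 0.0655, 0.0892 or 0.0763. Fat body and ovary had r = 0.216 over 22 pairs (permutation p = 0.349) and rho = 0.198. Without the 2 pairs farthest by their fat body value r was 0.459 (permutation p = 0.0642). Both values lay on the same side of their group means in 13 of 22 pairs for ovary and brain. For fat body and brain it was 14 of 20, and for fat body and ovary 11 of 22. Among all genes with a mean of at least 10 in both tissues, 72 of 9385 had a higher r than Def between ovary and brain, 321 of 9174 between fat body and brain and 2816 of 9204 between fat body and ovary.

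Single sets of libraries show what lies behind these values. Number 6 of control TP1 was highest of its group in all 3 tissues, with 16558 counts in its brain, 385487 in fat body and 13015 in ovary. Number 2 of egg removal TP1 was lowest of its group in all 3, with 153, 17205 and 7.46 counts in the brain, fat body and ovary. Number 1 of control TP2 was highest in the brain (74961) and the ovary (68787) but not in the fat body (453522), where numbers 2 and 3 were higher. Number 2 of egg removal TP2 had by far the most Def of its group in the fat body (756463), with 6676 in the brain and 166 in the ovary.

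**Figure D3:**
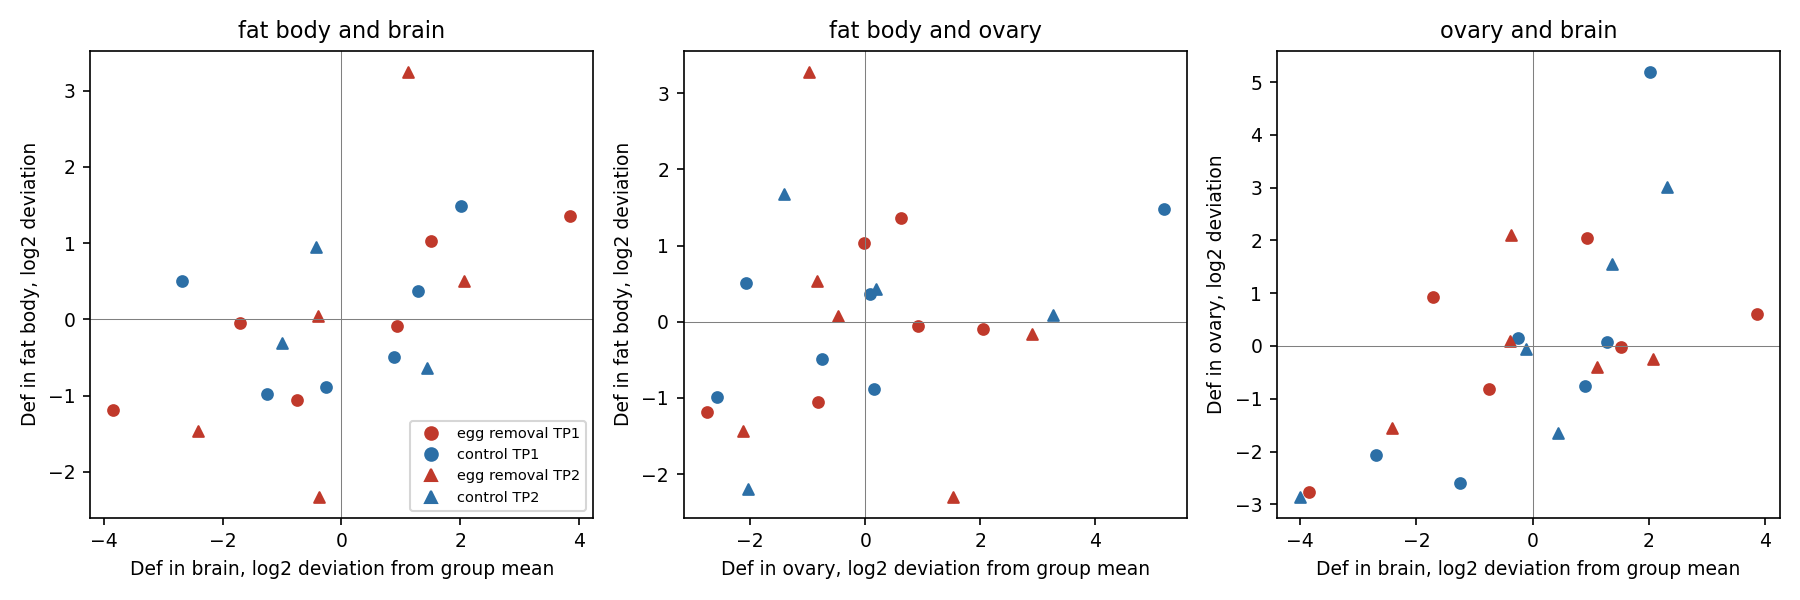
Def in 2 tissues for libraries of the same number, treatment and time, each as the log2 deviation from the mean of the paired libraries of its group (colours and shapes as for the levels). The points lean upward for ovary and brain (r = 0.644, 22 pairs) and for fat body and brain (r = 0.523, 20 pairs) and scatter for fat body and ovary (r = 0.216, 22 pairs).

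RNA of genes typical of the fat body was measured beside Def in the other tissues. The 35 genes used were those with a median of at least 100 CPM in the fat body that was at least 50 times the median in both brain and ovary. They were chosen from these values. LOC100631078 and LOC100651094, named below as most like Def, are among them, and these 2 made up a median of 16.3% of the sum in the brain and 18.7% in the ovary, and up to 58.6% and 75.0% in single libraries. The sum was not weighted, so it is no even measure of its genes, and those of highest level count most. By median these were LOC100650436 in the brain (1448 CPM) and in the fat body (125219 CPM), and LOC100652170 in the ovary (361 CPM). The next highest medians were 254, 27176 and 123 CPM in the same order of tissues. None of the 35 was at 0 throughout any group. In the brain their summed share lay between 2149 and 22802 CPM in egg removal TP1, against 388 and 8112 in control TP1, and between 1741 and 11375 in egg removal TP2, against 700 and 2697 in control TP2. They had higher medians in egg-removal brains, where Def had lower medians. For the 35 genes these were 5701 CPM against 2584 in control at TP1, and 2565 against 1370 at TP2. In the ovary they lay between 704 and 1011 CPM in egg removal TP2 and between 470 and 4246 in control TP2, with medians of 961 and 1440. In the fat body itself they lay between 344612 and 444108 in egg removal TP1, against 158898 and 273327 in control TP1, and between 179963 and 339332 in egg removal TP2, against 90856 and 182506 in control TP2. By medians the fat body thus also had more RNA of these genes and less Def in egg removal at both times. The medians of these genes were 413666 CPM against 215849 at TP1, and 267699 against 140013 at TP2. Over deviations from group means their summed level had r = 0.641 with Def in the brain (22 libraries) and 0.524 in the ovary (24 libraries), against -0.167 in the fat body (22 libraries). Without LOC100631078 and LOC100651094 the sum of the other 33 had r = 0.549 in the brain, 0.266 in the ovary and -0.417 in the fat body. Beyond the covariate fits below, their part in Def's differences was not tested.

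The summed level was then used as a covariate, an alternative chosen after the values were seen. In the brain this level had higher medians in egg removal and rose with Def within groups. Adjusting for it therefore lowers the egg-removal difference there by construction, so a call gained in this way is no separate evidence. The outcome depended on whether the 2 genes most like Def were in the sum. In the brain the TP2 difference between egg removal and control, -2.29 without a covariate, was -4.07 with all 35 genes (limma adjusted p = 0.0396) and -4.47 with the other 33 (adjusted p = 0.0573). The brain difference at TP1, -0.89 without a covariate, was -2.68 with 35 genes (limma adjusted p = 0.204) and -2.72 with 33 (adjusted p = 0.239). In the ovary the TP2 difference was -3.08 with 35 genes (limma adjusted p = 0.029) and -4.46 with 33 (adjusted p = 0.00296). The change with age in control ovaries was 2.44 and not called with 35 genes (limma adjusted p = 0.106), and 4.00 and called with 33 (adjusted p = 0.00649). With the 33-gene level taken out of the brain and ovary values, r of Def was 0.723 between fat body and brain (adjusted permutation p = 0.00381) and 0.586 between ovary and brain (adjusted permutation p = 0.00478). With the 35-gene level taken out they were 0.690 (adjusted permutation p = 0.0078) and 0.431 (adjusted permutation p = 0.0318).

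**Figure D4:**
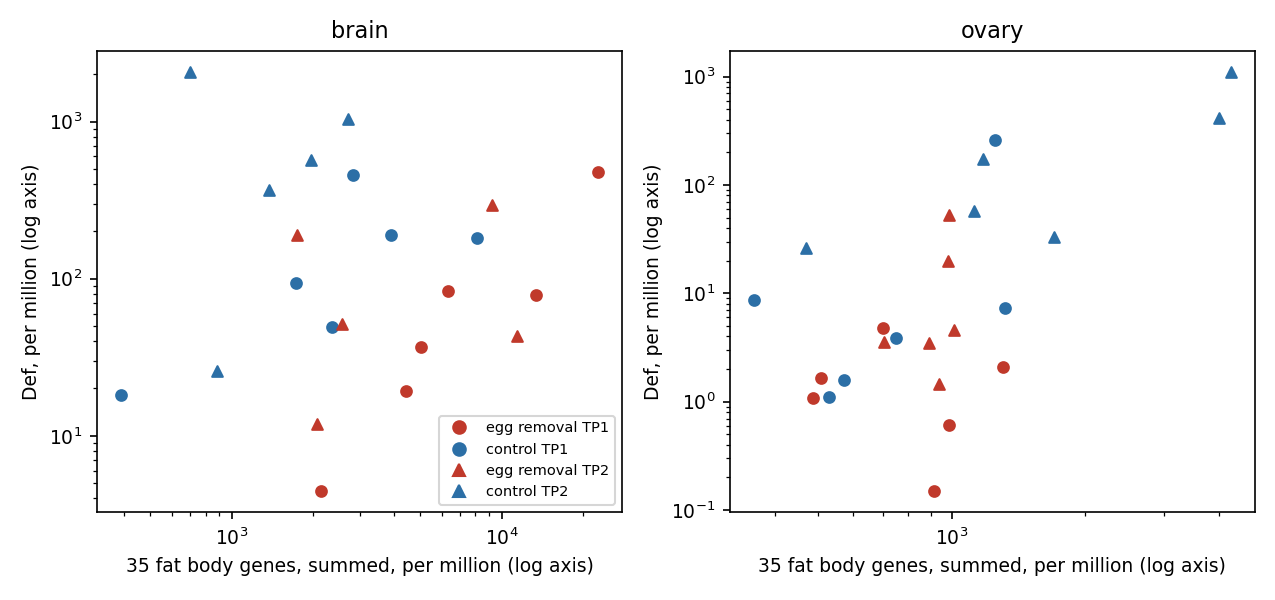
Def against the summed level of 35 genes far higher in the fat body (the 2 genes most like Def included), both in CPM on log axes, in brain (left) and ovary (right) libraries. In the brain the egg-removal libraries (red) lie to the right of most controls at a given level of Def. In the ovary 2 control TP2 libraries, numbers 1 and 4, stand at the upper right.

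One gene followed Def in all 3 tissues. Over deviations from group means, LOC100631078, a protein-coding gene to which RefSeq gives no further name in the table used, had r = 0.907 with Def over 22 brains, 0.919 over 22 fat bodies and 0.863 over 24 ovaries. It was first of 9705 genes in the brain and first of 9357 in the fat body, and behind 3 others of 9749 in the ovary. Its counts spanned 302 to 52030 in brains, 50052 to 2275347 in fat bodies and 7.69 to 5115 in ovaries. Its group differences come from the same libraries whose deviations were used to pick it, so they are no independent support for Def's. In the ovary they were -4.27 for egg removal over control at TP2 (SE 1.18, limma adjusted p = 0.00414) and 3.30 for TP2 over TP1 in control (SE 1.18, limma adjusted p = 0.0193). In the fat body they were -1.60 at TP1 (limma adjusted p = 0.0586) and -1.84 at TP2 (adjusted p = 0.12) for egg removal over control. In the brain these 2 were -0.72 (limma adjusted p = 0.786) and -0.91 (adjusted p = 0.711), where Def had -0.89 and -2.29. With age in control brains it was 0.86 (limma adjusted p = 0.773), where Def had 1.88.

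**Figure D5:**
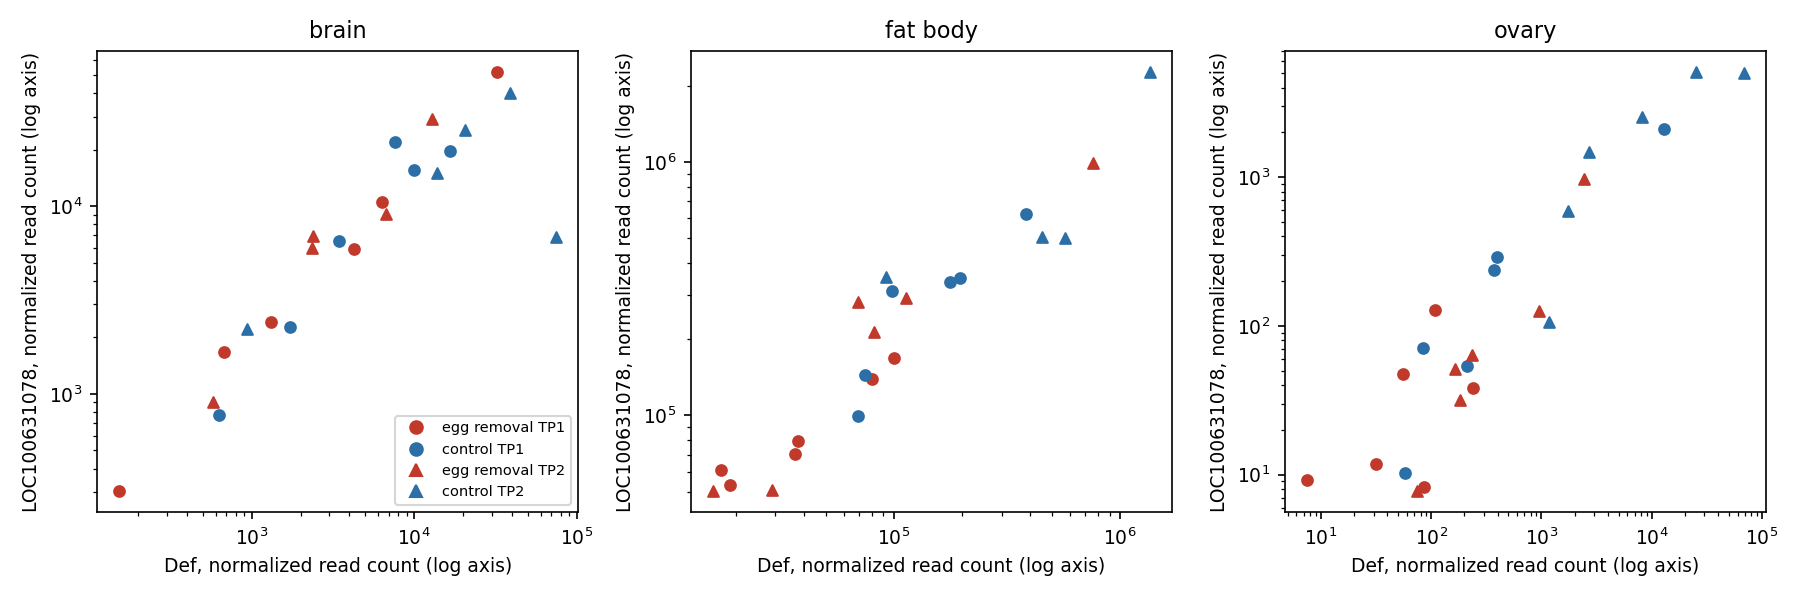
LOC100631078 against Def, both as normalized read counts on log axes, in each library of the brain, fat body and ovary (colours and shapes as for the levels). The values of both genes are high and low in the same libraries, and 1 brain library, number 1 of control TP2, lies far to the right of the others, with 74961 counts of Def and 6810 of LOC100631078.

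Ranked by the lowest of their 3 values of r, the next genes were LOC100648499, with 0.906 in brains, 0.656 in fat bodies and 0.687 in ovaries, and LOC100651094, with 0.760, 0.649 and 0.791 in the same order of tissues. Another gene, LOC100642443, also had r of at least 0.6 in each tissue, and no other did. It lay outside the rule for named genes and was picked with its values known. In all, 150 genes of brains, 81 of fat bodies and 626 of ovaries had r of at least 0.6. Of those measured in both tissues, fat body and brain shared 9, which is 11.2% of the fat body genes and 6% of the brain genes. Fat body and ovary shared 7, which is 8.86% of the fat body genes and 1.15% of the ovary genes. Ovary and brain shared 37, which is 6.01% of the ovary genes and 25.7% of the brain genes. Among all genes measured in both tissues of a pair, such genes made up 0.872% (fat body) and 1.64% (brain) in the first pair, 0.858% (fat body) and 6.63% (ovary) in the second, and 6.56% (ovary) and 1.53% (brain) in the last.

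Within a single tissue the nearest genes were mostly others. In the brain LOC100644742 (r = 0.867) and LOC100650035 (0.856) followed LOC100631078 and LOC100648499, and the most opposed were LOC100650931 (-0.759) and LOC105666435 (-0.735). In the fat body LOC100650142 (0.867), LOC100643911 (0.836) and LOC100651417 (0.777) came next, with r of -0.049, 0.050 and 0.582 in the brain. The most opposed there were LOC100644425 (-0.767) and LOC100650725 (-0.757). In the ovary LOC110119301 (0.904), LOC100649529 (0.902) and LOC100644886 (0.884) preceded LOC100631078, and the most opposed were LOC100647726 (-0.837) and LOC100646397 (-0.828).

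Def's neighbours on the chromosome did not share its pattern to that degree. In the RefSeq table the next protein-coding genes that follow it in the assembly's order are LOC100651198, LOC100651077 and LOC100650843, and a long non-coding RNA gene, LOC110119340, overlaps it but was not analysed here. LOC100651198, the nearest, had r with Def of 0.489 in brains, 0.110 in fat bodies and 0.604 in ovaries. For LOC100651077 and LOC100650843 r lay between 0.058 and 0.322 over the 3 tissues.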

How the data were processed

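Messenger RNA of 3 tissues of Bombus terrestris queens was read from 68 libraries, made with a stranded kit and run on 2 lanes per the labels' protocols. The deposited values (a signal, not whole counts) are read counts that the authors normalized within each tissue. The submitters' processing notes name kallisto 0.46.1, R 4.0.1 and DESeq2 1.28.1, without their roles. No source used here gives the genome build or annotation, so no position is printed.

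Genes with a mean of at least 1 in 1 group were kept, and limma 3.58.1 (R 4.3.3; trend, robust prior) was fitted to log2(value + 1) taking the 4 groups of a tissue together. Benjamini-Hochberg adjustment ran over all kept genes. Fold changes on this scale understate those of low values. Exact permutation tests compared Def alone. Differences of changes between tissues came from 1 fit of all 12 groups. Correlations between same-numbered libraries were tested with 100000 permutations within groups in Python 3.11.15. Scripts were tested on simulated data. Depth was estimated as a library's total divided by what 1 read is worth. That worth was the median of its smallest positive values, those below 1.6 times the one at rank 10. It is approximate, so no counting interval is given.

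Def and the lists were chosen with earlier results of these data known. Genes most like Def were, per tissue, the 4 with the highest and the 2 with the lowest r, and the 3 with the highest lowest r over the tissues, among genes with a mean of at least 10. RefSeq names (assembly iyBomTerr1.2) matched 93.4%, 93.4% and 93.2% of identifiers in the brain, fat body and ovary.

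Same-numbered egg-removal and control libraries of a tissue had correlations between -0.503 and 0.657. These were not set beside those of other numbers, so whether replicate numbers pair the treatments was not tested. Alternatives covered the pseudocount, the filter, the scaling, weights, covariates, the block and each library left out.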

Additional observations from a re-analysis of the deposited data

Results flagged for a closer look

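In 5 of 12 groups 1 library stood far above the others of its group for Def on the linear scale. The rule flags about 1 in 20 groups by chance only where values are normally distributed. That rate is no measure for counts as widely spread as these on the linear scale. On the log2 scale 1 of the 12 groups stood out in this way, ovary control TP1. The libraries were brain egg removal TP1 number 1 (32162), fat body egg removal TP2 number 2 (756463), ovary egg removal TP2 number 6 (2453), ovary control TP1 number 6 (13015) and ovary control TP2 number 1 (68787). Without the 5 same-numbered sets that hold these libraries, a choice made after the data were seen, r between ovary and brain was 0.673 over 18 pairs (permutation p = 0.00889, adjusted 0.0267), and r between fat body and brain was 0.492 over 16 pairs (permutation p = 0.0941, adjusted 0.141).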

How the results depend on the processing

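Within tissues, alternatives other than leaving out 1 library kept the direction of Def's difference and its side of the threshold in 163 of 172 cases. Most main results were uncalled and far from the threshold, so this count says little of the others. Each ovary call was kept in 11 of these alternatives and lost in 2. Fat body egg removal against control at TP1 stayed uncalled in 7 and was called in 3. Fat body egg removal against control passed at TP1 after scaling to equal totals (-2.56), with its 2 groups alone (-1.81) and with weights per library (-1.72), and at TP2 with weights (-2.51). Brain egg removal against control at TP2 passed with the 35 fat body genes as covariate (-4.07), but not without the 2 of them most like Def (-4.47). That covariate itself differed between the treatments in the brain. Ovary calls were lost with depth as covariate (-2.85 for egg removal against control at TP2), without both shallow libraries (-2.98 at TP2 and 2.87 with age in control) and with the 35 fat body genes as covariate (2.44 with age in control), though not with 33 (4.00). Leaving out 1 library gave -0.29 to 1.25 for age in egg-removal brains, and in the fat body -2.09 to -1.52 at TP1 and -3.18 to -1.89 at TP2 for egg removal against control. Of the tissue differences, with weights the fat body minus brain values for egg removal at TP2 and age in egg removal turned to 0.053 and -0.27. Without 1 library they ranged from -0.89 to 0.84 and -0.26 to 1.29, the one for age in control from -1.26 to 0.48, and fat body minus ovary at TP1 from -0.22 to 1.34. The fat body and brain r ranged from 0.464 to 0.604 without 1 pair, and was 0.492 without the sets standing apart. The cause of these shifts was not tested. With the replicate number as a block no call on Def changed (egg removal against control in the ovary at TP2 -4.31, adjusted p = 0.00506). Few queens and the wide spread limit every comparison.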

Other observations

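The ratio of Def to LOC100631078 in normalized counts set 1 brain apart. Since the lengths of the genes are not used, the ratio is read between libraries, not as a level of one gene against the other. In the brain it lay between 0.343 and 0.972 in 21 of 22 libraries, with a median of 0.627, and was more than 10 times as high in number 1 of control TP2, with 74961 counts of Def and 6810 of LOC100631078. In the ovary the same number had the highest ratio as well, at 13.7, beside a next highest of 11.2 and a median of 3.47 over 24 libraries. In the fat body the same number had 0.899, below the highest of 1.13, with a median of 0.525 over 22 libraries. That brain library also held 1 of the lower levels of the 35 fat body genes (700 CPM, the lowest of its group). No explanation of this ratio was tested.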
